A study of Mus musculus with 83 samples.

Results

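The miRNAs of the miR-29 family and of the miR-148/miR-152 family, both known as regulators of DNA methyltransferases, were followed in small RNA libraries of mouse embryonic stem cells (ESCs) that lost *Dnmt1* and of primordial germ cells (PGCs). The members are defined by their names: the features *Mir29a*, *Mir29b-1*, *Mir29b-2*, *Mir29c*, *Mir148a*, *Mir148b* and *Mir152*, 7 of the 32101 features and of the 1573 miRNA features in the table, which holds 83 libraries. The ESCs carry loxP sites in both *Dnmt1* alleles, and Cre recombinase, switched on by tamoxifen, removes the gene. Control cells carry the same loxP alleles, the labels give the background strain as E14 whereas the study's methods give C57BL/6, and the cells grew in serum with LIF, with or without feeder cells. The 36 time course libraries hold control cells and cells with the deletion, labelled Dnmt1 KO, at 6 times (1, 3, 6, 9, 11 and 25 days), each group as 3 replicates. A further 8 libraries, 4 of each genotype, were made at day 9 from RNA bound to AGO2, an Argonaute protein that carries mature miRNAs. The PGCs, precursors of eggs and sperm, were sorted by an Oct4-GFP transgene from C57BL/6J embryos, 1 library each of female and male embryos at E13.5 and E14.5. Whether the ESC line is 1 clone, and how many embryos went into a PGC library, is not given in the sources used here.

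A mature miRNA of about 22 nt guides Argonaute to mRNAs that pair with its seed, the bases near its 5′ end. miRNAs of the miR-29 family are known to target the mRNAs of the *de novo* methyltransferases *Dnmt3a* and *Dnmt3b*, and are typically abundant in fibroblasts and other differentiated cells. Those of the miR-148/miR-152 family are known to target *Dnmt1*, the maintenance methyltransferase that was deleted here, and *Dnmt3b*. Levels of the miRNAs were measured in these libraries, not the mRNAs they pair with.

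The 3p arm is the usual guide strand of both families, and its sequences show which members share a seed (bases 2 to 8 from the 5′ end, in capitals).
miR-29a-3p: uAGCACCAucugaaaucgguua
miR-29b-3p: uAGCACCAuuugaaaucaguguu
miR-29c-3p: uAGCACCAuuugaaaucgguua
miR-148a-3p: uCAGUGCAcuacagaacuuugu
miR-148b-3p: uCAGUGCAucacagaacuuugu
miR-152-3p: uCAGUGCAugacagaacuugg
The sequences are those of RefSeq on GRCm38.p6, in which all 7 members were found. Within a family the seed was shared and the differences lay behind it. With positions counted from 1 at the 5′ end, miR-29c-3p differs from miR-29a-3p by C10U alone, and miR-29b-3p differs by C10U, G18A, U21G and A22U over the 22 bases compared and is 1 base longer. miR-148b-3p differs from miR-148a-3p by C9U and U10C, and miR-152-3p by C9U, U10G and U20G over 21 bases. In the RefSeq list each of these seeds belonged to 3 mature miRNAs, the ones shown. The 5p arms did not follow the families to the same degree: miR-148a-5p and miR-148b-5p share the seed AAGUUCU, whereas miR-152-5p has AGGUUCU.

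The loci, in the NCBIM37 coordinates of the files, fall into a pair of miR-29 clusters and 3 single sites. *Mir29a* (ENSMUSG00000065610, chr6:31012660-31012747, minus strand) and *Mir29b-1* (chr6:31013017-31013097, minus) lie 269 bases apart and overlap no other feature. *Mir29b-2* (chr1:196863234-196863314, plus) and *Mir29c* (ENSMUSG00000065548, chr1:196863741-196863828, plus) lie 426 bases apart in an exon of the lincRNA *A330023F24Rik*. *Mir148a* (ENSMUSG00000065505, chr6:51219811-51219909, minus) overlaps no feature. *Mir148b* (ENSMUSG00000065560, chr15:103115556-103115652, plus) lies in an intron of *Copz1*, and *Mir152* (ENSMUSG00000065515, chr11:96711707-96711779, plus) in an intron of *Copz2*, genes for a subunit of the COPI vesicle coat. A read of a miRNA inside another gene counts for both, and the host features held little else: in day 1 controls *Copz1* averaged 1035.26 reads per 1000000 reads of the library (RPM) against 1031 for *Mir148b*. *Copz2* averaged 159.57 against 159 for *Mir152*, and *A330023F24Rik* 17.38 against 16.8 for *Mir29c*. Values of these hosts therefore repeat those of the miRNAs and say nothing about the host transcripts.

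Library totals ran from 870481 to 6239009 reads on days 1 to 11, from 521066 to 815523 on day 25, from 11497718 to 25423038 in AGO2 controls, from 1152390 to 11520133 in AGO2 Dnmt1 KO and from 1734576 to 3435993 in PGCs. Over miRNA features, replicates of a time course group differed with a chi-square per degree of freedom of 2.115 to 140, where counting error alone gives 1. Another 30 libraries of days 1 to 11 repeat the same names with an R1 suffix (day 11 controls titled WT); their chi-square against their namesakes was 1.361 to 5.685 per degree of freedom, and they are taken here as another version of the same samples, not as replicates. Genotype tags contradict the titles of some R1 libraries, AGO2 libraries and libraries titled none, and PGCs are tagged as ESCs, so groups follow titles. Small RNA reads over *Dnmt1* gave no check of the deletion: the 3 day 1 controls averaged 51.5 RPM and the Dnmt1 KO libraries 40.8 RPM, and no day passed the test. miRNAs of the miR-290 cluster, which mark ESCs, summed to 110500 to 208800 RPM in every time course library. Of 6 fibroblast miRNAs listed as markers of feeders or gonadal stroma (*Mir143*, *Mir145*, *Mir199a-1*, *Mir199a-2*, *Mir199b*, *Mir214*), 5 are in the table, *Mir143* made up nearly the whole sum, and *Mir199a-1* was at 0. Their sum ran from 6132 to 22910 RPM on days 1 to 11 and from 953.8 to 1292 RPM on day 25. In bulk libraries such as these, fewer cells of a type and less RNA per cell cannot be told apart.

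The families differed greatly in abundance, and each was dominated by 1 member. The miR-148/miR-152 features summed to 7378 to 16380 RPM in the 36 time course libraries, 1.342 to 2.974% of all miRNA reads, and *Mir148a* made up 85.24 to 94.76% of the sum. The miR-29 features summed to 85.28 to 1088 RPM, 0.01613 to 0.1845% of miRNA reads. *Mir29a* contributed 92.86 to 98.13% of it on days 1 to 11 and 60.0 to 85.71% on day 25. By mean RPM in day 1 controls, *Mir148a* ranked 9 among the 1573 miRNA features, *Mir148b* 51, *Mir29a* 68, *Mir152* 118 and *Mir29c* 213.

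*Mir29b-1* and *Mir29b-2* were close to 0 throughout. *Mir29b-1* reached at most 4.595 RPM and *Mir29b-2* at most 3.215 RPM in any time course library, so neither passed the filter for testing (at least 10 RPM in at least 3 libraries), alone or summed. miR-29b-3p matches the NCBIM37 genome exactly at both loci, whereas every other mature sequence of the members matches at 1 place. Of 402 miRNA features that could be matched to mature sequences, 40 share some but not all mature arms with another hairpin, as *Mir29b-1* and *Mir29b-2* do. Their median in day 1 controls was 3.7 RPM, and 35% of them reached 10 RPM. The median was 11.81 RPM for the 345 that share no arm and 0 RPM for the 17 that share every arm. How reads with several places in the genome were treated is not stated, so the values of *Mir29b-1* and *Mir29b-2* cannot be read as the level of miR-29b. The tests below cover the other 5 members.

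*Mir29a*, the main miR-29 of these cells, was higher in Dnmt1 KO from day 3 to day 9 and lower on day 25. In RPM, the controls of day 1 had 614.8, 624.2 and 505.5, and the Dnmt1 KO libraries 657.0, 602.4 and 697.4. On day 3 the controls had 554.3, 625.7 and 587.3 RPM against 863.1, 791.1 and 800.5 in Dnmt1 KO. On day 6 they had 364.7, 380.9 and 371.7 RPM against 471.0, 562.1 and 551.7. The ranges overlapped on day 1 and lay apart, with Dnmt1 KO above, on days 3 and 6. On day 9 the controls had 700.8, 635.4 and 696.6 RPM against 1067, 894.2 and 957.5, the highest level of any group. On day 11 they had 557.2, 542.3 and 500.1 RPM against 590.8, 642.3 and 599.4. On day 25 the controls had 102.2, 103.6 and 90.74 RPM (54 to 74 reads) against 64.30, 62.76 and 51.17 in Dnmt1 KO (27 to 49 reads), so that the groups again lay apart but in the opposite order.

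In the model of all 36 libraries (limma on log2(RPM + 1) after TMM scaling, p-values Benjamini-Hochberg adjusted over 2582 features; each difference below is a log2 fold change on that scale), *Mir29a* differed by 0.49 ± 0.099 (SE) on day 3 (adjusted p = 0.000887), 0.39 ± 0.099 on day 6 (0.00264) and 0.64 ± 0.099 on day 9 (3.07e-06), a 1.55-fold higher level. On day 25 it was 0.65-fold, a difference of -0.62 ± 0.099 (adjusted p = 3.75e-06). Day 1 (0.08, adjusted p = 0.806) and day 11 (0.28, adjusted p = 0.0777) did not pass, although on day 11 the ranges did not overlap. Of all features tested, 3.8% were called on day 1, 6.24% on day 3, 23% on day 6, 18.4% on day 9, 8.64% on day 11 and 35% on day 25. The change of the effect from day 11 to day 25 was -0.90 ± 0.14 (adjusted p = 4.2e-06, 20.5% of features called), a comparison added after the values of day 25 were seen; from day 1 to day 11 it was 0.20 (adjusted p = 0.52, 9.02% called). Over all 6 days the difference averaged 0.21 ± 0.04 (adjusted p = 6.91e-05, 26.7% called), a mean of opposite directions that was 0.04 (adjusted p = 0.39) with miRNA features only. The call of day 3 was lost with the R1 libraries in place of their namesakes (adjusted p = 0.181). The call of day 6 was lost without Dnmt1 KO replicate 3 (0.27, adjusted p = 0.0865), and on that day the median of all tested features lay at 0.14. Day 11 passed without Dnmt1 KO replicate 3 (0.36, adjusted p = 0.039) but turned to -0.06 when only miRNA features were used for scaling and fit.

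The fibroblast list was higher in Dnmt1 KO on days 3 to 9, as *Mir29a* was, and also on day 25, where *Mir29a* was lower. At day 3 its sum averaged 10520 RPM in controls and 16490 RPM in Dnmt1 KO, at day 6 6677 and 11910 RPM, and at day 9 12640 and 22240 RPM. At day 11 the averages were 10850 and 13420 RPM and at day 25 996.5 and 1264 RPM, so that the Dnmt1 KO mean was the higher one each time. Of the 4 list members tested on day 25, 3 were called higher and 1 lower, where 35% of all features were called. Per 1000 RPM of the list, the day 3 mean of *Mir29a* was 56.0 for controls and 49.7 for Dnmt1 KO, the day 6 mean 56.0 and 44.3, and the day 9 mean 54.3 and 43.7. At day 25 the means were 99.6 and 47.0 per 1000 RPM. The day 11 means were 49.1 for controls and 45.6 for Dnmt1 KO, and the day 1 means 59.6 and 61.9. Per unit of this list the Dnmt1 KO means of *Mir29a* were therefore the lower ones on every day except day 1. The part of fibroblasts in the differences of *Mir29a* was not tested. Blood cell miRNAs (4 listed, mostly *Mir142*) averaged 971.1 RPM in controls and 2185 in Dnmt1 KO on day 9, when 1 of the 2 that could be tested was called higher. Their Dnmt1 KO mean was also the higher one on days 3, 6 and 11. It was the lower one on day 1 (2306 in controls, 1971 in Dnmt1 KO) and day 25 (999.8 and 775.9). The let-7 miRNAs, which mark differentiated cells and of which 8 of 11 listed are in the table, averaged 1603 RPM in controls and 2674 in Dnmt1 KO on day 9, and 79.3 and 69.5 RPM on day 25.

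**Figure D1:**
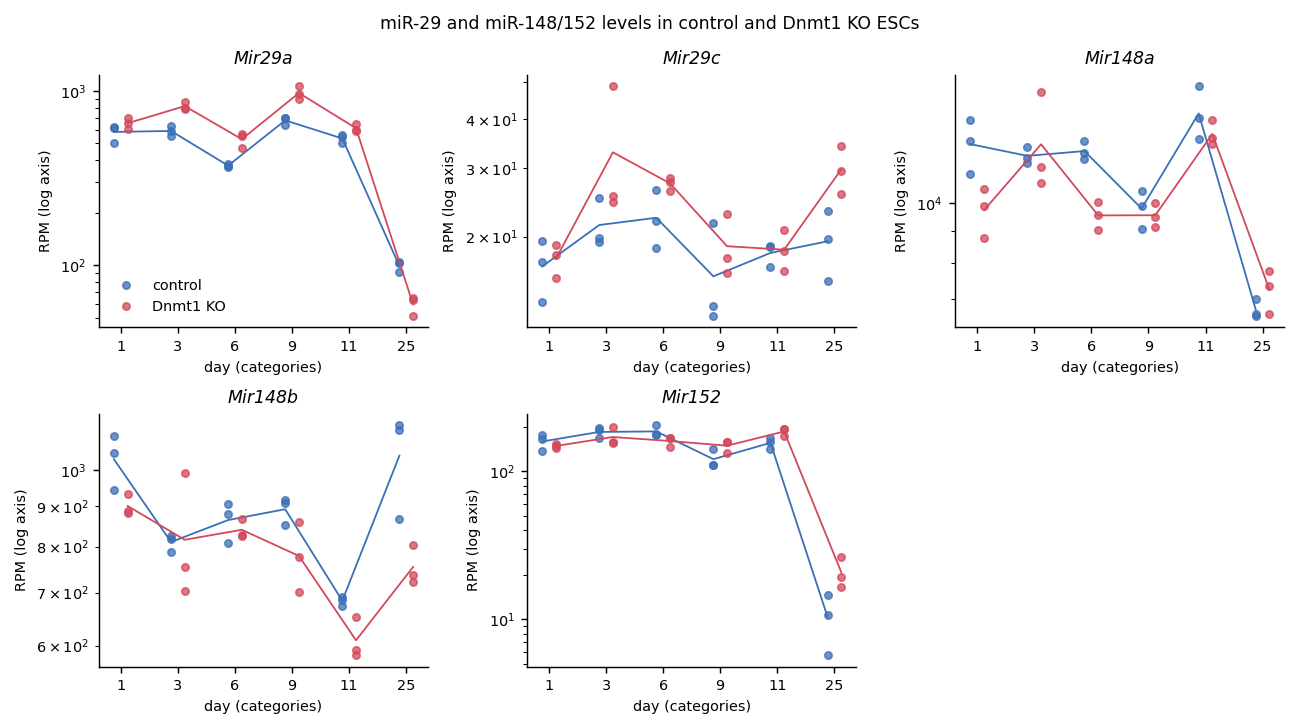
Level of the 5 testable members in RPM (log axis, scaled separately for each miRNA) on days 1, 3, 6, 9, 11 and 25, which are drawn as evenly spaced categories. Each point is 1 library, lines join the means of 3 replicates, blue is control and red is Dnmt1 KO. *Mir29a* falls to between 51.17 and 103.6 RPM on day 25 in both genotypes, and *Mir152* to between 5.757 and 26.53 RPM, whereas *Mir29c* stays at 15.35 to 34.11 RPM and *Mir148b* at 721.1 to 1138 RPM there.

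*Mir29c*, transcribed from the other cluster and 1 base different from *Mir29a* in its guide, was scarce and followed another course. It ranged from 12.53 to 26.41 RPM over the 18 control libraries, with day 25 inside that range. On day 25 the controls had 19.72, 15.35 and 23.30 RPM (8 to 19 reads) and the Dnmt1 KO libraries 25.72, 29.46 and 34.11 (16 to 23 reads). All 3 Dnmt1 KO libraries lay above the controls, with a difference of 0.70 ± 0.23 (adjusted p = 0.0135). This call was lost without Dnmt1 KO replicate 3 (0.54, adjusted p = 0.0944), without control replicate 2 (0.51, adjusted p = 0.109), and in a fit of day 25 alone. On the other days the ranges overlapped and no call was made. Day 3 had the next largest difference at 0.55 (adjusted p = 0.153), with Dnmt1 KO libraries at 48.71, 24.59 and 25.46 RPM against 19.84 and 19.32 in 2 of the controls and a value between the lower pair of Dnmt1 KO libraries in the other, so that 1 library carried much of it. Averaged over days the difference was 0.32 ± 0.092 (adjusted p = 0.00729), but 0.15 (adjusted p = 0.115) with miRNA features only, and without the filter the adjusted p was 0.0533. On day 25 *Mir29a* and *Mir29c*, with 1 seed between them, therefore differed from control in opposite directions.

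*Mir148a*, the most abundant member, was lower in Dnmt1 KO on days 1 and 6. On day 1 the controls had 11160, 12610 and 13680 RPM against 8775, 10540 and 9917 in Dnmt1 KO, and the ranges did not overlap. The difference was -0.45 ± 0.11 (adjusted p = 0.0106), but it was lost without Dnmt1 KO replicate 1 (-0.35, adjusted p = 0.172) or without control replicate 3 (-0.37, adjusted p = 0.137). On day 6 the controls had 12080, 12610 and 11800 RPM against 10060, 9059 and 9557, again apart, with -0.45 ± 0.11 (adjusted p = 0.00163). This call held without each replicate in turn. The groups overlapped on days 3, 9, 11 and 25, where the differences lay between -0.02 and 0.22 and none passed. On day 9, for example, the controls had 9884, 9072 and 10470 RPM and the Dnmt1 KO libraries 9148, 9513 and 10030. With miRNA features only, day 11 was called at -0.36 (adjusted p = 0.000592). Averaged over days the difference was -0.09 ± 0.044 (adjusted p = 0.119). It was -0.27 (adjusted p = 3.36e-08) with miRNA features only, and also passed with library totals.

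*Mir148b* varied little over the course. Its 36 values ran from 583.7 to 1138 RPM, with a median of 826.1. On day 25 the controls had 1122, 1138 and 865.7 RPM and the Dnmt1 KO libraries 803.8, 721.1 and 737.2, which lay apart, giving a difference of -0.35 ± 0.11 (adjusted p = 0.012). Without control replicate 1 (-0.31, adjusted p = 0.0564) or control replicate 2 (-0.32, adjusted p = 0.0527) it did not pass. Its ranges also lay apart on day 1 (881.3 to 933.1 RPM in Dnmt1 KO, 942.3 to 1102 in controls) and on day 11 (583.7 to 651.1 and 673.6 to 691.6), where the test did not pass (adjusted p = 0.186 and 0.831). Averaged over days the difference was -0.15 ± 0.045 (adjusted p = 0.00729; 0.0526 without the filter). With miRNA features only this mean was -0.33 (adjusted p = 2.14e-08). That setting also gave calls on day 6 (-0.31, adjusted p = 0.00971), day 9 (-0.31, adjusted p = 0.00912) and day 11 (-0.42, adjusted p = 0.000774).

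*Mir152* was called on day 25 and on no other single day. The controls of day 25 had 10.76, 5.757 and 14.71 RPM and the Dnmt1 KO libraries 19.29, 16.65 and 26.53, which did not overlap. The values rest on 3 to 12 reads per control library and 12 to 14 reads per Dnmt1 KO library. The difference was 1.09 ± 0.19, or 2.13-fold (adjusted p = 1.3e-05), and held without each replicate in turn, from 0.72 to 1.37, but not in a fit of day 25 alone or with weights for the number of reads, where the adjusted p reached 0.139. On day 11 the Dnmt1 KO libraries had 192.2, 191.2 and 172.6 RPM against 166.2, 141.9 and 157.8 in controls, apart but not called (0.34, adjusted p = 0.384). On day 6 the order was the opposite, 167.0, 145.7 and 166.7 RPM in Dnmt1 KO against 178.2, 203.9 and 174.5 in controls (-0.32, adjusted p = 0.232). The change of the effect from day 11 to day 25 was 0.75 ± 0.26 (adjusted p = 0.0385) and fell short of the threshold without 7 of the 12 libraries in turn, with values from 0.32 to 1.00. The mean over days, 0.21 ± 0.076 (adjusted p = 0.0391), was lost without 19 of the 36 libraries in turn (0.12 to 0.25) and was 0.04 (adjusted p = 0.658) with miRNA features only. It was also lost with library totals (adjusted p = 0.0534), without the filter (0.223) and with voom weights (0.11). Beside these values, the fibroblast list averaged 996.5 RPM in controls and 1264 in Dnmt1 KO on day 25 and the miR-290 list 195900 and 137900 RPM, with 5 of its 7 members called lower. Of the 5 members, 1 was called on day 1, 1 on day 3, 2 on day 6, 1 on day 9, none on day 11 and 4 on day 25, in 1 direction or the other, where 3.8, 6.24, 23, 18.4, 8.64 and 35% of all features were called.

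**Figure D2:**
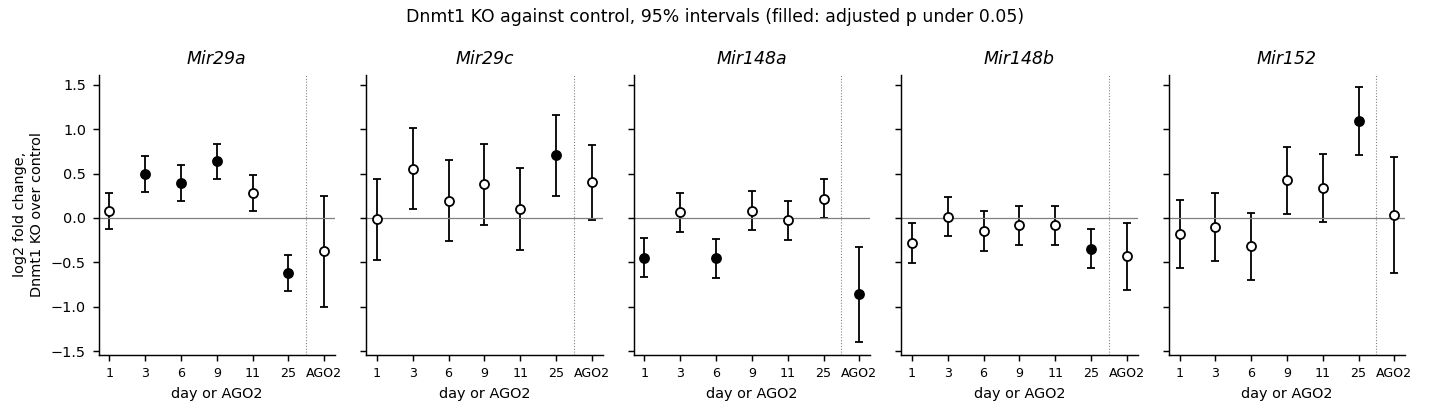
Difference between Dnmt1 KO and control as log2 fold change of RPM + 1 (vertical axis) on each day and, right of the dotted line, in the AGO2 libraries, with 95% confidence intervals from the limma fits. Filled points have an adjusted p under 0.05. *Mir29a* lies above 0 on days 3 to 9 and at -0.62 on day 25, where *Mir152* reaches 1.09.

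From day 1 to day 25, *Mir29a*, *Mir152* and *Mir148a* fell in both genotypes. From day 1 to day 25 in controls, *Mir29a* fell by 2.67 ± 0.099 on the log2 scale, to 0.157-fold (adjusted p = 2.28e-24), and *Mir152* fell by 4.0 ± 0.19, to 0.0624-fold (adjusted p = 5.58e-21). *Mir148a* fell by 1.02 ± 0.11, to 0.492-fold (adjusted p = 1.86e-10), from 11160 to 13680 RPM on day 1 to 6563 to 6978 RPM on day 25. *Mir148b* (-0.13, 95% interval -0.35 to 0.10; 0.27 with adjusted p = 0.0215 with miRNA features only, -0.35 with adjusted p = 0.00806 with TMM factors from all features before the filter) and *Mir29c* (0.07, interval -0.39 to 0.53) did not pass. In this comparison 50.9% of all features tested were called, and 3 of the 5 members. The same comparison within Dnmt1 KO, added after values were seen, gave 47.1% of features and 4 members: *Mir29a* -3.37 (adjusted p = 4.71e-27), *Mir152* -2.73 (8.57e-16), *Mir148a* -0.36 (0.00527) and *Mir29c* 0.79 (0.00357). With miRNA features only *Mir148a* was at -0.15 (adjusted p = 0.105), and with TMM factors from all features before the filter *Mir29c* was at 0.41 (adjusted p = 0.12). Over the 12 group means of day and genotype, Pearson's r of the log2 levels with the fibroblast list was 0.978 for *Mir29a*, 0.93 for *Mir152* and 0.731 for *Mir148a*, against -0.306 for *Mir148b* and -0.2 for *Mir29c*. Both day 25 groups enter these values, so r restates in part the fall of member and list by day 25. The let-7 list gave 0.993 for *Mir29a*, 0.917 for *Mir152* and 0.725 for *Mir148a*. The sum of the fibroblast list was 9932 RPM in day 1 controls and 996.5 in day 25 controls, while the miR-290 sum went from 119800 to 195900 RPM. *Mir199a-2* was at 0 in the 3 day 25 controls, and *Mir214* averaged 0.598 RPM there against 140 on day 1. Whether feeder cells were present on each day is not given in the labels, the day 25 libraries are the shallowest of the course, and the part of either was not tested.

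**Figure D3:**
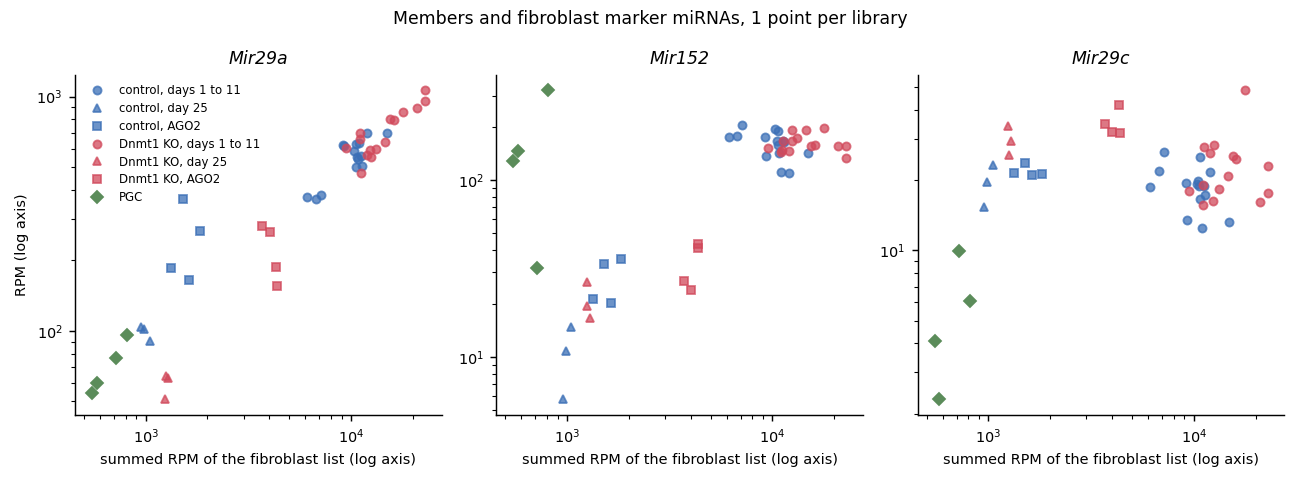
RPM of *Mir29a*, *Mir152* and *Mir29c* (vertical, log axis) against the summed RPM of the 5 fibroblast miRNAs in the table (horizontal, log axis), 1 point per library. Circles are days 1 to 11, triangles day 25 and squares AGO2 libraries, in blue for control and red for Dnmt1 KO; diamonds are PGCs. *Mir29a* of days 1 to 11 lies along a band with the list, at 41.79 to 68.02 per 1000 RPM of it, and *Mir29c* shows no such band. The triangles of day 25 lie at lower values of both. Those of Dnmt1 KO are at 41.03 to 51.28 per 1000 RPM, and those of controls lie above the band, at 86.45 to 108.7.

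The order of the 12 groups differed between members. *Mir29a* stood highest in Dnmt1 KO of day 9 (973 ± 87.6 RPM, SD, n = 3), then in Dnmt1 KO of day 3 (818 ± 39.2), and lowest in the day 25 groups (98.9 ± 7.07 in control, 59.4 ± 7.18 in Dnmt1 KO). 5 of its 11 pairs of neighbours in that order did not overlap; the 7 groups between 677.6 and 528.3 RPM overlapped their neighbours. *Mir148a* stood highest in day 11 controls (14000 ± 1419 RPM) and lowest in day 25 controls (6716 ± 228), with 2 of 11 neighbours apart. *Mir148b* was highest in day 25 controls (1042 ± 153 RPM) and lowest in Dnmt1 KO of day 11 (609 ± 36.5), with 3 of 11 apart. *Mir152* was highest in day 6 controls (185.5 ± 16.0 RPM) and lowest in day 25 controls (10.4 ± 4.49), with 3 of 11 apart. For *Mir29c* no neighbours lay apart, from 32.9 ± 13.7 RPM in Dnmt1 KO of day 3 to 15.8 ± 5.04 in day 9 controls. Between members, r over the 12 means was 0.9 for *Mir29a* with *Mir152* and 0.857 for *Mir148a* with *Mir152*, across the family boundary in the first case, and -0.302 for *Mir29a* with *Mir29c*.

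Among 282 other miRNA features that passed the filter, those most like the miR-29 sum over the 12 means were let-7 family members: *Mir98* (r = 0.995), *Mirlet7i* (0.995) and *Mirlet7b* (0.993). Those most like the miR-148/miR-152 sum were *Mir499* (0.947), *Mir126* (0.919) and *Mir301b* (0.882). *Mir126* ranged from 500.3 to 1655 RPM over these means, and *Mir499* from 1.824 to 11.17 RPM.

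In AGO2 pull-downs of control cells, *Mir148a* was higher than in day 9 total RNA and *Mir29a* and *Mir152* were lower. These comparisons, whose control libraries also serve the genotype comparisons, were made over 288 miRNA features of the 8 AGO2 and 6 day 9 libraries. *Mir148a* had 22480, 19600, 25060 and 23150 RPM in the AGO2 controls against 9072 to 10470 in day 9 controls, a difference of 1.17 ± 0.2 (adjusted p = 0.000206). *Mir29a* had 267.0, 366.0, 186.4 and 164.5 RPM against 635.4 to 700.8 (-1.56 ± 0.26, adjusted p = 0.00014). *Mir152* had 35.55, 33.48, 21.20 and 20.22 RPM against 109.6 to 141.5 (-2.15 ± 0.28, adjusted p = 1.43e-05). None of these ranges overlapped. The control library titled none, with 57155 reads, had 13560 RPM of *Mir148a* (775 reads), 140 of *Mir29a* (8 reads) and 52.49 of *Mir152* (3 reads). In RPM it thus lay on the same side of the day 9 controls as the AGO2 controls for each of them. Whether the differences are particular to AGO2 was not tested. miRNAs make up 98.9 to 99.0% of reads in AGO2 controls and at most 60.7% in the time course, and as a share of miRNA reads *Mir148a* was at 1.979 to 2.534% against 1.577 to 1.824%, a smaller difference that still did not overlap. *Mir29c* (0.46, adjusted p = 0.0668) and *Mir148b* (0.28, adjusted p = 0.0765; 0.31 and 0.0413 with library totals) did not pass. In this comparison 65.3% of the features were called, so that a call was the more common outcome. The fibroblast list was at 1336 to 1831 RPM in AGO2 controls against 10980 to 14910 in day 9 controls, and at 1750 RPM in the control library titled none. The let-7 list averaged 330.2 RPM in AGO2 controls against 1603 in day 9 controls, and the miR-290 list 233700 against 123500 RPM. Pull-down, library batch, depth and the mix of cells cannot be told apart here.

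Within Dnmt1 KO, AGO2 against day 9 gave -2.78 ± 0.26 for *Mir29a* (adjusted p = 1.08e-06) and -2.74 ± 0.28 for *Mir152* (adjusted p = 2.41e-06), with 52.8% of features called. *Mir29c* (0.28, adjusted p = 0.289) and *Mir148b* (-0.28, adjusted p = 0.0905) did not pass. *Mir148a* differed by 0.02 (95% interval of the fit -0.42 to 0.46), although in RPM all 4 AGO2 Dnmt1 KO libraries (10800 to 20600) lay above the 3 of day 9 (9148 to 10030). The TMM factors of these AGO2 libraries were 1.3272 to 1.4922, against 0.7911 to 0.9425 in the 3 other groups. With library totals as the scaling *Mir148a* differed by 0.63 (adjusted p = 0.00744), *Mir29c* by 0.87 (0.0025) and *Mir148b* by 0.33 (0.0315), so that whether these 3 members differ rests on the scaling. As a share of miRNA reads *Mir148a* was at 1.1 to 2.099% in AGO2 Dnmt1 KO and 1.552 to 1.687% on day 9, which overlap. The difference of the genotype effect between AGO2 and day 9, added after these values were seen, was -1.15 ± 0.29 for *Mir148a* (adjusted p = 0.00964) and -1.22 ± 0.37 for *Mir29a* (adjusted p = 0.0272), with 23.3% of features called. It did not pass for *Mir148a* without AGO2 Dnmt1 KO replicate 1 (-0.94, adjusted p = 0.0663) or day 9 Dnmt1 KO replicate 3 (-0.97, adjusted p = 0.2), nor for *Mir29a* without 6 of 14 libraries in turn (-1.05 to -1.24, adjusted p up to 0.0677). With library totals as the scaling it was -0.64 for *Mir29a* and -0.57 for *Mir148a*, neither of which passed. For *Mir148b* it was -0.56 (adjusted p = 0.046), which no fit without 1 of the 14 libraries kept and which library totals turned to 0.02.

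**Figure D4:**
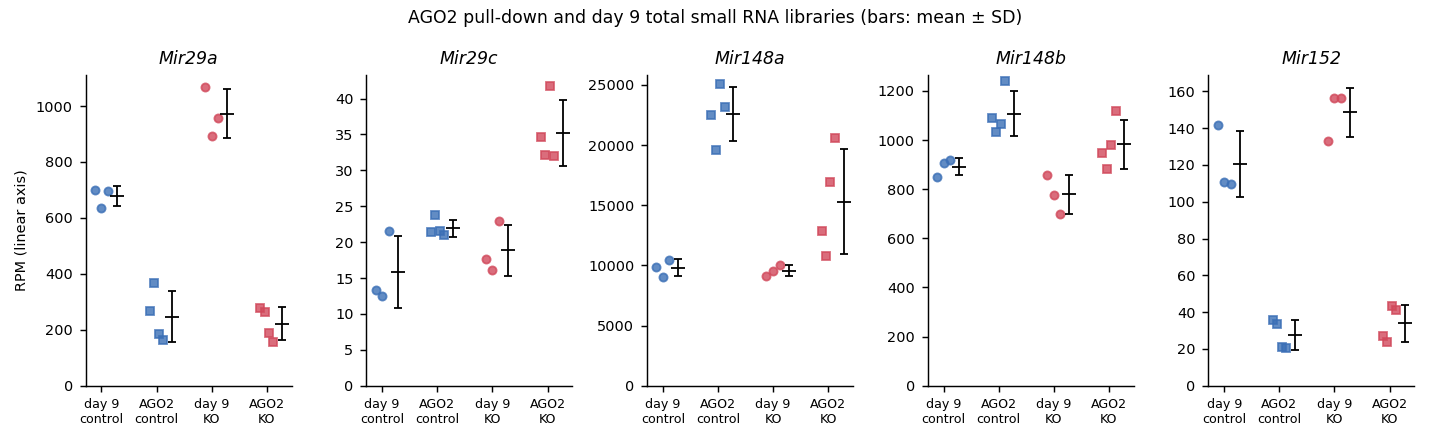
RPM (linear axes from 0) of the 5 testable members in day 9 total RNA (circles, 3 libraries per group) and AGO2 pull-downs (squares, 4 libraries per group), in blue for control and red for Dnmt1 KO, with the mean ± SD beside the points. For *Mir148a* the AGO2 controls lie at 19600 to 25060 RPM and the AGO2 Dnmt1 KO libraries between 10800 and 20600 RPM.

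Between the genotypes within AGO2, *Mir148a* was lower in Dnmt1 KO. Its 4 Dnmt1 KO libraries had 12860, 10800, 16940 and 20600 RPM against 22480, 19600, 25060 and 23150 in controls, so that 1 Dnmt1 KO library reached above the lowest control. The difference was -0.86 ± 0.24 (adjusted p = 0.0207 over 456 features, of which 36.4% were called), or 0.552-fold. The call was lost without Dnmt1 KO replicate 1 (-0.84, adjusted p = 0.0598), Dnmt1 KO replicate 2 (-0.77, adjusted p = 0.0536), control replicate 3 (-0.75, adjusted p = 0.0588) or control replicate 4 (-0.85, adjusted p = 0.0503). The series counts 2 biological replicates for 2 of its samples, which may be the AGO2 groups; with means of replicates 1 and 2 and of 3 and 4 in place of single libraries the adjusted p was 0.401. The Dnmt1 KO libraries held 1152390 to 11520133 reads and the controls 11497718 to 25423038, and the 2 libraries with the lowest *Mir148a* were the 2 shallowest, at 1152390 and 1553877 reads. The part of depth was not tested. Under 5 scalings the difference of *Mir148a* ran from -1.775 to -0.60, each with an adjusted p under the threshold, while the median of all tested features ran from -0.78 to 0.34.

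The other members did not pass in this comparison, and the scaling decided some of their signs. *Mir148b* had 947.6, 880.4, 982.1 and 1119 RPM in Dnmt1 KO against 1092, 1035, 1064 and 1240 in controls (-0.43 ± 0.17, adjusted p = 0.0731). It passed with median-ratio factors (-0.57, adjusted p = 0.0347) and without Dnmt1 KO replicate 4 (-0.65, adjusted p = 0.025). It also passed with miRNA features only (-0.69, adjusted p = 0.0255) and with a term for pairs of replicates. With TMM factors from all features before the filter it was -1.35 (adjusted p = 0.0101), where the median of all tested features was -0.78. *Mir29a* had 279.4, 264.5, 186.8 and 155.6 RPM against 267.0, 366.0, 186.4 and 164.5 (-0.38, adjusted p = 0.327). It passed with those factors from before the filter (-1.29, adjusted p = 0.00617), but not with miRNA features only (-0.64, adjusted p = 0.0504). *Mir29c* had 34.71, 32.18, 41.80 and 31.94 RPM, all above the 21.04 to 23.74 RPM of the controls. After scaling its difference was 0.40 ± 0.19 (adjusted p = 0.123); with library totals it was 0.65 (adjusted p = 0.0233), and with factors from all features before the filter -0.48. *Mir152* had 26.90, 23.81, 43.28 and 41.32 RPM against 35.55, 33.48, 21.20 and 20.22 (0.03, adjusted p = 0.966), a sign that 3 other ways of scaling turned and that 4 of the 8 fits without a library turned. *Mir29b-1* had 6.074, 0.6436, 0.8893 and 0.868 RPM in Dnmt1 KO (7, 1, 3 and 10 reads) against 0.2911 to 0.3933 in controls, apart but too low to test. The fibroblast list averaged 1578 RPM in AGO2 controls and 4102 in AGO2 Dnmt1 KO.

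In PGCs *Mir148a* was again the leading member and *Mir29a* was low. With 1 library per stage and sex no test within a stage and sex was possible, no other test of PGCs was run, and the intervals given are 95% Wilson intervals that cover counting error only. *Mir148a* had 8362 RPM (8256 to 8469) in E13.5 females, 10450 (10330 to 10570) in E13.5 males, 8660 (8562 to 8758) in E14.5 females and 9493 (9350 to 9638) in E14.5 males. In RPM both male libraries lay within the 8775 to 15520 of ESCs on days 1 to 11 and both female libraries just below it. However, miRNAs made up 36.7 to 55.6% of reads in PGCs and 52.9 to 60.7% on days 1 to 11. As a share of miRNA reads the miR-148/miR-152 sum was 2.02, 2.027, 2.488 and 2.508% in the same order of libraries. All 4 lay inside the 1.721 to 2.974% of ESCs on days 1 to 11. *Mir29a* had 76.75, 96.38, 54.13 and 59.96 RPM in the same order, near the day 25 ESCs and below every ESC library of days 1 to 11 (364.7 RPM or more). *Mir148b* had 210.7, 504.4, 344.6 and 399.5 RPM, below all time course libraries on that scale.

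*Mir152* differed most between PGC libraries, with 31.62 RPM (25.70 to 38.91) in E13.5 females, 323.7 (303.9 to 344.8) in E13.5 males, 128.3 (116.9 to 140.9) in E14.5 females and 146.4 (129.5 to 165.6) in E14.5 males. *Mir202*, a miRNA of the gonadal soma, had 25.23, 154.1, 99.53 and 109.5 RPM in the same order, the order of *Mir152*, and at most 1.793 RPM in any time course library. The Oct4-GFP sort is a gate meant to remove somatic cells, and the part of any that remained in the level of *Mir152* was not tested. *Mir29c* had 9.949, 6.045, 4.075 and 2.306 RPM (28, 18, 14 and 4 reads), and *Mir29b-2* had no read, which allows up to 0.8731 to 1.73 RPM. The fibroblast list, which also marks gonadal stroma, summed to 716.7, 809.6, 547.1 and 577.1 RPM in the same order of libraries. That is not the order of *Mir152*. The miR-290 cluster summed to 12180 to 24350 RPM in PGCs. Among 3 PGC libraries with the R1 suffix, the one titled E14.5 male had 338.7 RPM of *Mir152* and 547.9 of *Mir148b*, nearer to the E13.5 male library than to its namesake. The other 2, with 114631 and 60317 reads, held 39 and 12 reads of *Mir148a*.

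**Figure D5:**
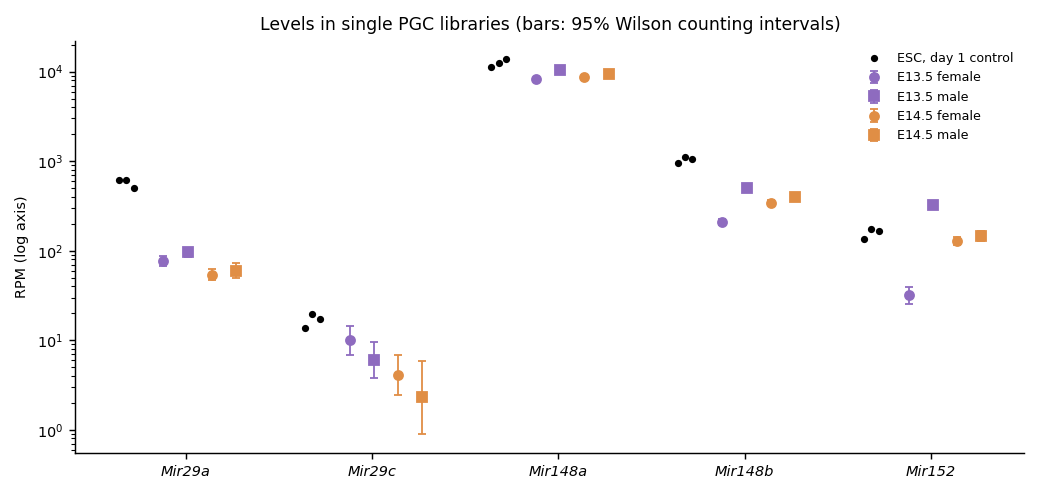
RPM (log axis) of the 5 testable members in single PGC libraries of E13.5 and E14.5 females (circles) and males (squares), with 95% Wilson counting intervals, beside the 3 day 1 control ESC libraries (black points). *Mir152* spans 31.62 to 323.7 RPM between PGC libraries, and *Mir29a* lies below ESCs in all 4.

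Other miRNAs described as acting on methyltransferase mRNAs were taken as a list of 8 (*Mir101a*, *Mir101b*, *Mir126*, *Mir140*, *Mir143*, *Mir185*, *Mir342*, *Mir377*), all of which could be tested in the time course. Of these, 2 were higher and none lower in Dnmt1 KO on days 3, 9 and 11, 2 higher and 3 lower on day 6, 3 higher and 2 lower on day 25, and none was called on day 1. The shares of all features called were 6.24, 18.4 and 8.64% on days 3, 9 and 11, and 23, 35 and 3.8% on days 6, 25 and 1. The list's median difference lay between -0.26 on day 6 and 0.21 on day 11. The 2 that were higher on every day from day 3 on were *Mir143*, which is also the main fibroblast marker (0.95 on day 9, adjusted p = 1.13e-09), and *Mir377*, a miRNA of the imprinted *Dlk1-Dio3* region. *Mir377* had 154.9 to 171.2 RPM in Dnmt1 KO against 15.88 to 24.91 in controls on day 9, and 231.2 to 271.7 against 0 to 1.793 on day 25. *Mir185* was lower on day 25 (-1.53, adjusted p = 9.42e-05) and *Mir101a* on day 6 (-0.86, adjusted p = 1.06e-05). In the AGO2 comparison *Mir377* and *Mir143* were higher and *Mir101a* lower in Dnmt1 KO (-0.63, adjusted p = 0.0429), and 7 of the 8 could be tested.

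Small RNA reads over genes of DNA methylation and its removal are not a measure of their mRNA, and few of these genes passed the test. Of 9 such genes (*Dnmt1*, *Dnmt3a*, *Dnmt3b*, *Dnmt3l*, *Uhrf1*, *Tet1*, *Tet2*, *Tet3*, *Tdg*), 7 could be tested in the time course. Between genotypes *Tet1*, which oxidises 5-methylcytosine, was higher in Dnmt1 KO on day 6 (0.71, adjusted p = 0.00271) and lower on day 25 (-0.51, adjusted p = 0.025). No other single day gave a call in this list, and over the mean of days *Dnmt3l* was higher (0.25, adjusted p = 0.0262). On day 6 the 9 genes summed to 134.7 to 173.9 RPM in Dnmt1 KO against 101.9 to 106.0 in controls, and on day 25 to 147.9 to 181.9 against 185.2 to 234.9, ranges that lay apart in opposite orders. The 9 genes together drew 101.9 to 234.9 RPM in the time course, and 3.392 to 12.15 RPM in the AGO2 libraries.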

How the data were processed

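Small RNA reads were trimmed with Trim Galore (0.3.5), mapped with Bowtie2 (2.2.9) to NCBIM37 and counted in SeqMonk by the authors, who deposited RPKM values per gene, not counts. How reads with several matches or either strand were treated is not given in the sources used here. RPM was recovered here as RPKM times feature length, and whole reads from the smallest step, with 100.0% of values up to 50 reads whole within 0.05 read. The members and lists were chosen with earlier results of these data known, the 5 members that passed the filter are compared, and the 3 miRNAs most like each family sum are named. Features with at least 10 RPM in at least 3 libraries were scaled by TMM (30% and 5% trimmed) on those features. They were then tested as log2(RPM + 1) with limma (3.58.1, R 4.3.3) and Benjamini-Hochberg adjustment at 0.05 over all features tested. Fold changes are on that scale, which understates the change of low features. Because the deposited unit is RPKM, a count model was not the main test; voom weights on the recovered reads were an alternative. The day 9 of the AGO2 libraries comes from the study's methods. Other settings were scaling, filter, pseudocount, weights, day-wise fits, miRNA features only, R1 libraries and each library left out. AGO2 libraries of the same replicate number deviated together (r 0.194 to 0.386 in 4 pairs). The fits were also run on simulated counts with independent replicates. These do not hold the shared deviations of the AGO2 libraries, so they do not show how the fits deal with them. The p-values measure the spread between these libraries, Wilson intervals cover counting error only, and intervals of fold changes come from the limma fits.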

Additional observations from a re-analysis of the deposited data

Results flagged for a closer look

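*Mir29b-1* in AGO2 Dnmt1 KO replicate 1 stood at 6.074 RPM (7 reads) against 0.6436 to 0.8893 RPM in the other 3 libraries of its group, a gap of 0.955 of the whole range, which is above Dixon's 95% critical value; chance marks about 1 in 20 groups.

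The Dnmt1 KO effect changed from day 11 to day 25 by 0.75 for *Mir152* and by -0.90 for *Mir29a* (log2, interaction terms of the limma fit, adjusted p = 0.0385 and 4.2e-06). It was smaller or more negative in AGO2 than in day 9 total RNA by -1.15 for *Mir148a*, -0.56 for *Mir148b* and -1.22 for *Mir29a* (adjusted p = 0.00964, 0.046 and 0.0272). Of these 5 differences, the one of *Mir29a* between days kept its call without each of the 12 libraries in turn, and the other 4 lost theirs without at least 1 library.

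The 2 libraries titled none, a control of the pull-down with beads but no serum, enter no comparison and held 57155 and 9830 reads. *Mir148a* was read there at 13560 RPM (775 reads, Wilson interval 12640 to 14540) in the control and 6714 RPM (66 reads, 5281 to 8532) in Dnmt1 KO. *Mir148b* stood at 752.3 RPM (43 reads) and 508.6 RPM (5 reads), and *Mir29a* at 140 RPM (8 reads) in the control. These exceed the limits that a count of 0 allows, 52.49 and 305.2 RPM. Levels per library total in so few reads say nothing of how much RNA went into these libraries.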

How the results depend on the processing

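Of the values of single members under other settings, 682 kept direction and side of the threshold, 33 lost a call, 33 gained one and 32 reversed; without single libraries the numbers were 624, 59, 15 and 22. The cause of the changes was not tested. The replicate block changed no member's call: in the time course, where same-numbered libraries did not deviate together (18 pairs, r -0.0661 to 0.0468), *Mir29a* on day 9 kept 0.636 (adjusted p = 1.87e-05) and 4 members stayed called on day 25, and with the AGO2 pairing *Mir148a* kept -0.858 (adjusted p = 0.00515).

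Members called of 5 follow, the reported number first. AGO2 between genotypes (1) gave 3 with TMM over all features before the filter, 2 with library totals, median-ratio factors, miRNA features only or a term for pairs of replicates, and 0 with means of pairs. AGO2 Dnmt1 KO against day 9 (2) gave 5 with library totals. Day 1 (1) gave 0 with TMM before the filter or no filter. Day 3 (1) gave 0 with the R1 libraries. Day 6 (2) gave 4 with miRNA features only. Day 9 (1) and day 11 (0) each gave 2 with the day fitted alone, miRNA features only or voom weights, but not the same members. With the day alone or voom weights they were *Mir29a* and *Mir152*, higher in Dnmt1 KO on either day. With miRNA features only they were, on day 9, *Mir29a*, higher, and *Mir148b*, lower. On day 11 that setting called *Mir148a* and *Mir148b*, each lower. Day 11 gave 1 with median-ratio factors. Day 25 (4) gave 1 with the day alone or voom. The mean of days (4) gave 2 with miRNA features only and 1 without filter. The AGO2 effect minus that of day 9 (3) gave 0 with library totals and 1 with median-ratio factors. The change from day 1 to 11 (0) gave 1 with median-ratio factors and 2 with voom. That from day 11 to 25 (2) gave 4 with miRNA features only and 1 with TMM before the filter, no filter, a pseudocount of 5 RPM or voom.

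Without single libraries the counts ran 0 to 2 for AGO2 between genotypes, 3 to 4 for AGO2 against day 9 controls, 0 to 1 on days 1 and 11, 1 on days 3 and 9, 1 to 2 on day 6, 2 to 4 on day 25, 3 to 5 for the mean of days, 1 to 2 for the AGO2 effect minus day 9, 0 to 1 for the change to day 11 and 1 to 3 for that to day 25.

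Values that reversed with the TMM factors from all features before the filter, a setting chosen after seeing the data, were *Mir152* (-0.845) and *Mir29c* (-0.480) in AGO2, *Mir29c* on day 1 (0.111) and from day 1 to 25 in controls (-0.140), *Mir148a* on day 11 (0.025) and *Mir148b* on day 3 (-0.029). With miRNA features only they were *Mir152* in AGO2 (-0.218), *Mir29a* on day 11 (-0.058), *Mir29c* on days 1 (0.044) and 11 (-0.221), *Mir148a* on days 3 (-0.185) and 9 (-0.150), *Mir148b* on day 3 (-0.237) and from day 1 to 25 in Dnmt1 KO (0.020) and controls (0.267), and the change to day 11 of *Mir148b* (-0.200), *Mir29a* (-0.199) and *Mir29c* (-0.265). With library totals they were AGO2 minus day 9 of *Mir148b* (0.024) and *Mir29c* (0.383), *Mir148b* in AGO2 Dnmt1 KO against day 9 (0.334), on day 3 (-0.006) and from day 1 to 25 in controls (0.007), *Mir148a* on day 9 (-0.035), and *Mir29c* on day 1 (0.071) and in the change to day 11 (-0.050). Median-ratio factors reversed *Mir152* in AGO2 (-0.093) and *Mir148a* on day 11 (0.039), voom *Mir148b* on day 3 (-0.013), and the R1 libraries *Mir152* on day 1 (0.055) and *Mir148a* (0.011) and *Mir148b* (0.052) on day 11.

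Without single libraries, reversals lay within -0.219 to 0.163 for *Mir152* in AGO2, -0.029 to 0.304 for *Mir148a* in AGO2 Dnmt1 KO against day 9, -0.421 to 0.098 for *Mir29c* in AGO2 minus day 9, -0.007 to 0.139 for *Mir29a* and -0.180 to 0.101 for *Mir29c* on day 1, -0.112 to 0.169 for *Mir148a* and -0.161 to 0.118 for *Mir148b* on day 3, -0.029 to 0.126 for *Mir148a* on day 9, -0.100 to 0.059 for *Mir148a* and -0.159 to 0.017 for *Mir148b* on day 11, -0.001 to 0.274 for *Mir29c* in the change to day 11, and -0.190 to 0.017 for *Mir148b* and -0.061 to 0.238 for *Mir29c* from day 1 to 25 in controls. On day 25 *Mir29c* and *Mir152* rest on 3 to 23 reads per library.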
